A study of Mus musculus with 6 samples.

Results

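Cell division in these libraries was followed through 50 genes of mitosis and the spindle, chosen by name from protein-coding genes in the deposited table of ribosome footprints, and all 50 were found among its 21970 protein-coding genes (56748 genes in all). The footprints are short mRNA fragments shielded by translating ribosomes, so the reads on a gene depend on its mRNA level, not analysed here, as well as on its translation. Mouse Lin-c-Kit+ cells, labelled as hematopoietic stem cells, were profiled at 12 days past a dose of 4.5 Gy, which both genotypes received. Of 6 libraries, 3 came from Mov10 knockout (Mov10 KO) mice and 3 from wild-type (WT) mice. Mov10 encodes an RNA helicase. The labels give no strain, age, sex or design of the knockout, and they do not say whether the libraries of a group come from separate animals, and the spread behind each p-value may therefore be technical.

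Mitosis begins when cyclin B binds the kinase Cdk1 and ends when the anaphase-promoting complex, with its activator Cdc20, has cyclin B and securin destroyed. Between these events, spindle microtubules attach to chromosomes at kinetochores, kinesin motors move and sort them, the chromosomal passenger complex corrects wrong attachments, and the spindle checkpoint holds back Cdc20 until all chromosomes are attached. Many of these genes are transcribed together late in the cell cycle, through the CHR element (cell cycle genes homology region) and CCAAT boxes of their promoters. Progenitors of the bone marrow divide often, and after irradiation they divide to refill the blood.

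The promoters are shown to set genes that rose beside genes that fell. RefSeq promoter windows (GRCm38.p6, 250 bases before to 50 after the start of the gene) were matched by symbol to 43 of the 50 genes. The CHR letters TTTGAA, searched on both strands, were in the windows of 32 of these 43 genes (74.4%), against 20.2% of 27025 genes with a window. The letters CCAAT, also on both strands, were in 29 of 43 (67.4%), against 41.1% of all, and both motifs together in 26 of 43 (60.5%), against 8.97%. Of 45 CHR matches, 34 began within 50 bases of the start. This count takes each window apart, so sites of genes with more than 1 window (Prc1, Bub3 and Ect2) count again. The windows end 50 bases past the start, so every match past the start falls within that distance. The same count over all genes was not made. The genes described below as higher in the knockout held the CHR letters in 12 of 15 windows, those described as lower in 4 of 6, and those not called in 16 of 22. The CCAAT letters were in 12, 3 and 14 of these windows, and both motifs together in 12 of 15 (80%), 3 of 6 (50%) and 11 of 22 (50%). The motifs cannot overlap each other by their letters except at a shared base, and a match is a description of the window, not of binding. The 180 bases before the start are given, 5′ to 3′ along the gene, for genes that fell (Ube2c and Ccnb2) and genes that rose (Cdk1, Top2a, Cdc20 and Kif22), with the letters of both motifs, on either strand, in capitals.
Ube2c (chr2:164769749-164769928, plus strand): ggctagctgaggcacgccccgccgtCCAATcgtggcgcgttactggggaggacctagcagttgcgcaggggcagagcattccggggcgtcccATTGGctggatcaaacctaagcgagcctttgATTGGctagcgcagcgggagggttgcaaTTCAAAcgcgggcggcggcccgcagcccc
Ccnb2 (chr9:70421555-70421734, minus strand): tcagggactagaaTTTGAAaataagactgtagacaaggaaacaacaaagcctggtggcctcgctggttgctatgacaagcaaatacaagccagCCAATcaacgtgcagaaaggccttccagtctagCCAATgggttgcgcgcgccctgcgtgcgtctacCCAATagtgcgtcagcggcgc
Cdk1 (chr10:69352913-69353092, minus strand): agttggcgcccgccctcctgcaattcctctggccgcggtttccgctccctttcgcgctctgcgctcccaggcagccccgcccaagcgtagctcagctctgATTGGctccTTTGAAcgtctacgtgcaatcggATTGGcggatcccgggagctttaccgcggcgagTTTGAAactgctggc
Top2a (chr11:99024190-99024369, minus strand): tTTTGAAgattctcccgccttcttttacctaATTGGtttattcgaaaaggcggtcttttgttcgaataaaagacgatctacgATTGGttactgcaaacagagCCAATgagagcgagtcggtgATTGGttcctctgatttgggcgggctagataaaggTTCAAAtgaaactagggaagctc
Cdc20 (chr4:118437344-118437523, minus strand): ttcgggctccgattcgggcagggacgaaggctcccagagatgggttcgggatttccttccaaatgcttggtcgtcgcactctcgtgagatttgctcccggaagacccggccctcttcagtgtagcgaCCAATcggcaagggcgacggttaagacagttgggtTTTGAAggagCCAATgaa
Kif22 (chr7:127042421-127042600, minus strand): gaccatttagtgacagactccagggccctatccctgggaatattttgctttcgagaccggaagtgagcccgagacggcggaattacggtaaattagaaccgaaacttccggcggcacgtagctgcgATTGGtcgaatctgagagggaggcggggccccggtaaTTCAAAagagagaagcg
The genes shown all hold both motifs and do not stand for the members without them. The CHR letters nearest to the start in these stretches began 15 bases before it in Cdk1, 17 in Kif22, 18 in Cdc20, 23 in Top2a and 29 in Ube2c. In Ccnb2 they began 167 bases before the start, and its window holds another match just past the start.

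The WT libraries held 2260348 to 2499634 reads and the knockout libraries 1118345 to 1352517, so depth and genotype went together. Each of the 50 genes had at least 11 reads in every library, and the highest had 4689. Levels are normalized reads, that is, reads divided by the size factor of the library, and errors are SDs over the libraries of a genotype (n = 3). Mov10 itself had 110.4, 106 and 104 in WT and 51.0, 89.0 and 46.3 in the knockout, lower in all 3 knockout libraries but not past the threshold (limma adjusted p = 0.0598), and knockout replicate 2 stood nearest to WT. Where the deletion lies in the gene is not given in the sources used here. Kit, which defines the gate, had means of 1099 in WT and 1122 in the knockout, while Slamf1 and Procr, markers of the most primitive stem cells, had means of at most 1.296. Marker genes of some other lineages moved with genotype, where 10.3% of all genes tested were higher and 10.9% lower. B cell markers (6 of 10 tested higher, 0 lower) made up 0.0202% to 0.0212% of the WT libraries and 0.0470% to 0.0598% of the knockout libraries. Erythroid markers (6 of 10 higher, 0 lower) made up 0.184% to 0.192% and 0.254% to 0.258%, and neutrophil markers (6 of 13 higher, 5 lower) 2.14% to 2.48% and 2.70% to 2.77%. Of the T and NK cell markers none of 9 passed (0.00976% and 0.00583% of reads). The progenitor markers (2 of 12 tested higher, 0 lower, median log2 fold change -0.26) as a whole made up 0.256% and 0.257%. Macrophage and monocyte markers (1 of 10 higher, 1 lower) made up 0.150% and 0.149%, and mast cell and basophil markers (2 of 6 higher, 0 lower) 0.0731% and 0.0760%. Megakaryocyte markers (1 of 6 higher, 0 lower) made up 0.0338% and 0.0404%, and stroma and endothelium markers (2 of 7 higher, 1 lower) 0.0245% and 0.0298%. In the lists from macrophages to stroma the shares of the genotypes overlapped. The part of the differences in lineage markers in the results on mitosis genes was not tested.

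Of the 50 mitosis and spindle genes, 15 were higher and 7 lower in the knockout, and 28 did not pass the test (limma on log2(normalized reads + 1), Benjamini-Hochberg adjusted p under 0.05 over 17114 genes). All 50 passed the filter of a mean of at least 1 normalized read. Across all genes tested, 21.2% were called, 10.3% higher and 10.9% lower, against 30% higher and 14% lower among the 50. Most of the 50 are well read, and among the 7755 protein-coding genes within their range of mean reads 17.5% were called higher and 13% lower. The median log2 fold change of the 50 was 0.11, against -0.17 for all genes tested and -0.06 for those 7755 genes. The knockout libraries all lay above the WT libraries in 20 of the 50 and all below in 11 (31, or 62%), against 39.8% of all genes tested, 16.9% above and 22.9% below. All 22 genes that were called had groups that did not overlap, and edgeR, run on the recovered reads, called the same 22 and 1 more (Anln), where it called 29.5% of all genes tested. With reads scaled to library totals 12 were higher and 10 lower, and after cyclic loess, which removes the trend of fold change with abundance, 7 were higher and 6 lower. The median of the 50 was -0.12 with library totals and -0.01 after cyclic loess, while that of all genes tested moved by -0.20 and 0.17. In bulk samples, a different number of dividing cells and a different number of footprints per dividing cell cannot be told apart.

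**Figure D1:**
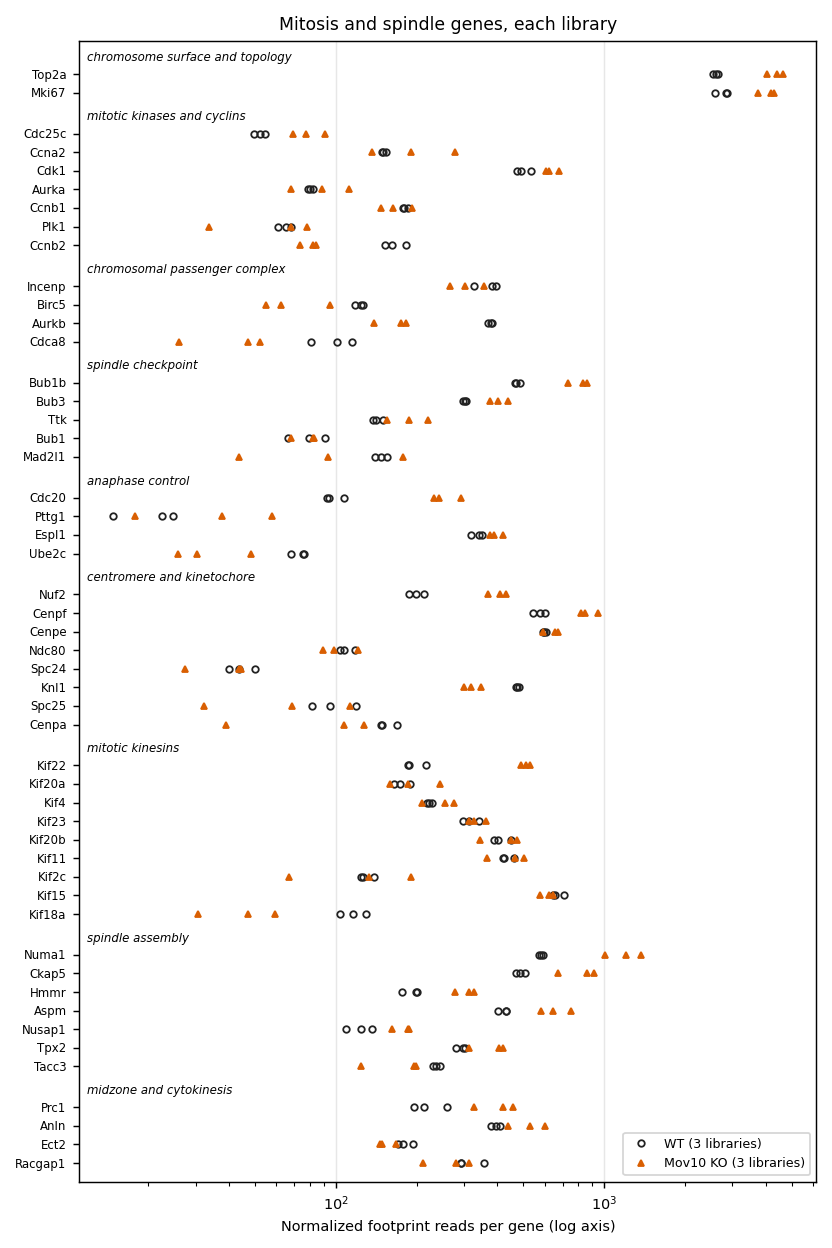
Normalized footprint reads (horizontal log axis) of the 50 mitosis and spindle genes in each of the 3 WT libraries (open circles) and 3 Mov10 KO libraries (triangles), grouped by role. Top2a and Mki67 stand apart at over 2000 normalized reads, and the triangles lie wholly to the left of the circles in Aurkb, Birc5 and Cdca8 and wholly to the right in Numa1, Kif22 and Cdc20.

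**Figure D2:**
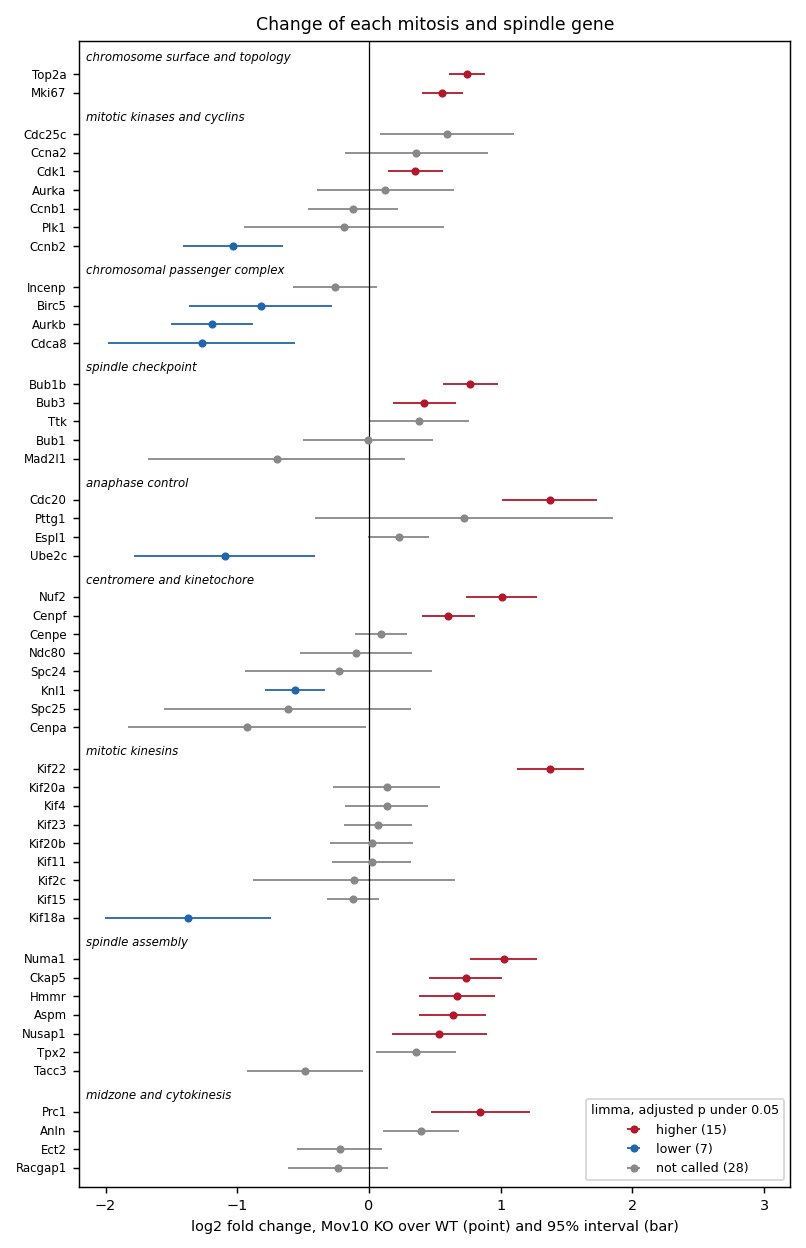
Log2 fold change of each gene, Mov10 KO over WT (points), with its 95% interval from the limma fit (bars), grouped by role and coloured by whether it passed an adjusted p under 0.05 (15 higher, 7 lower, 28 not called). Higher genes are found in all roles except the chromosomal passenger complex, where 3 of 4 genes were lower.

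The footprint reads of the 50 genes together made up 1.14% ± 0.0116 of each WT library and 1.28% ± 0.0253 of each knockout library, 1.12 times as much (exact two-sided permutation p = 0.1, the smallest that 3 against 3 allows). Most of this difference lay in Top2a and Mki67, without which the shares were 0.790% ± 0.00305 and 0.813% ± 0.0157, a ratio of 1.03. Without Top2a alone, the most abundant of the 50, the ratio was 1.07. As normalized reads, the scale of the gene levels, the same 3 ratios were 1.32 for all 50, 1.21 without Top2a and Mki67 and 1.26 without Top2a.

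Top2a, the topoisomerase that untangles sister chromatids, and Mki67, the protein that coats mitotic chromosomes and is used to mark dividing cells, were both higher in the knockout. Top2a (chromosome 11, 98883769 to 98915015, GRCm39, as are all gene positions below) had 2653, 2544 and 2620.0 normalized reads in WT and 4400.0, 4057 and 4641 in the knockout, 1.68-fold higher (log2 fold change 0.74, SE 0.06, adjusted p = 9.64e-05). Mki67 (chromosome 7, 135291513 to 135318090) had 2596, 2878 and 2848 in WT and 4297, 4201 and 3754 in the knockout, 1.47-fold higher (log2 fold change 0.56, SE 0.07, adjusted p = 0.000969). Every knockout library lay above every WT library in both genes. Per kilobase of the gene length in the table, a length that may include untranslated parts, Top2a at 387 and Mki67 at 341 normalized reads were the densest of the 50, and Bub1b followed at 150.3. Both calls were lost after cyclic loess, which gave a log2 fold change of 0.04 for Top2a (adjusted p = 0.727) and -0.15 for Mki67 (adjusted p = 0.219). In all other alternative settings both genes passed as higher, and why cyclic loess differed was not tested.

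The chromosomal passenger complex was the role in which most genes were lower. It joins the kinase aurora B (Aurkb) to the scaffold Incenp, to survivin (Birc5) and to borealin (Cdca8). Of these, 3 of 4 fell and 0 rose, against 10.9% of all genes tested and 13% of protein-coding genes of like abundance that were lower. Aurkb (chromosome 11, 68936473 to 68942490) had 380.4, 371 and 378 normalized reads in WT and 174, 183 and 139 in the knockout, 2.28-fold lower (log2 fold change -1.19, SE 0.14, adjusted p = 0.000695). The WT libraries of Aurkb lay close together (SD 5.12), and all knockout libraries were far below them. Cdca8 had 115, 100.6 and 81.1 in WT and 52.3, 46.9 and 26.0 in the knockout, 2.37-fold lower (log2 fold change -1.27, SE 0.31, adjusted p = 0.0228). Birc5 had 124, 118 and 126 in WT and 95.2, 55.0 and 62.2 in the knockout, 1.73-fold lower (log2 fold change -0.82, SE 0.24, adjusted p = 0.0404). The groups did not overlap in either gene, and in Birc5 knockout replicate 1 stood nearest to WT. Incenp had 368 ± 35.3 in WT and 309 ± 46.2 in the knockout, with groups that overlapped (adjusted p = 0.228, 95% interval of the log2 fold change -0.58 to 0.06). Summed, the 4 genes made up 0.0625% ± 0.00256 of the WT libraries and 0.0324% ± 0.00519 of the knockout libraries (ratio 0.518) (exact two-sided permutation p = 0.1). Without WT replicates 1, 2 and 3 in turn only Aurkb of the 4 passed, with an adjusted p of 0.0115 to 0.0134, while Cdca8 reached up to 0.120 and Birc5 up to 0.154. Birc5 did not pass in 7 of 17 alternative settings, whereas with library totals all 4 genes, Incenp among them, passed as lower.

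Among the spindle assembly genes 5 of 7 were higher and 0 lower, against 10.3% of all genes tested and 17.5% at like abundance that were higher. Numa1 encodes a protein that gathers microtubules at the spindle poles. It (chromosome 7, 101583318 to 101664171) had 573, 581 and 594 normalized reads in WT and 1008, 1203 and 1373 in the knockout, 2.05-fold higher (log2 fold change 1.02, SE 0.11, adjusted p = 0.000530). Ckap5, a microtubule polymerase, had 486, 469 and 506 in WT and 861, 674 and 916 in the knockout, 1.68-fold higher (adjusted p = 0.00435). In both genes the lowest knockout library stood well above the highest WT library, and the knockout libraries differed more among themselves than the WT libraries did. Hmmr, a microtubule-binding protein of the spindle, had 199, 200.1 and 176 in WT and 312, 278 and 328 in the knockout, 1.60-fold higher (adjusted p = 0.00802). Aspm, a spindle pole protein named for its part in brain size, had 432, 403 and 431 in WT and 581, 647 and 752 in the knockout, 1.56-fold higher (adjusted p = 0.00579). Nusap1, which bundles microtubules near chromosomes, had 109, 124 and 136 in WT and 162, 186 and 187 in the knockout, 1.45-fold higher (adjusted p = 0.0436). Of these 5, Nusap1 was nearest to the threshold and did not pass in 12 of 17 alternative settings. Tpx2 (294 ± 12.6 in WT and 379.8 ± 57.6 in the knockout, adjusted p = 0.0943), an activator of aurora A, did not pass although its libraries did not overlap. Tacc3, the partner of Ckap5 on microtubules, had 236, 245 and 230.3 in WT and 198, 196 and 124 in the knockout, with all knockout libraries below WT (log2 fold change -0.49, adjusted p = 0.111), and it had the only log2 fold change below 0 among the 7. Tacc3 passed as lower with library totals (adjusted p = 0.0299). The 7 genes together made up 0.151% ± 0.00311 of the WT libraries and 0.204% ± 0.0132 of the knockout libraries (ratio 1.35) (exact two-sided permutation p = 0.1), and after cyclic loess 2 of the 7 were called higher.

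Anaphase control held genes of opposite direction. Cdc20 (chromosome 4, 118290098 to 118294549), the activator of the anaphase-promoting complex that the checkpoint restrains, had 107, 93.9 and 92.7 normalized reads in WT and 292, 231 and 243 in the knockout, 2.61-fold higher (log2 fold change 1.37, SE 0.16, adjusted p = 0.000677). Ube2c (chromosome 2, 164611818 to 164620742), the enzyme that hands ubiquitin to the same complex, had 76.0, 75.5 and 68.1 in WT and 48.3, 25.9 and 30.4 in the knockout, 2.10-fold lower (log2 fold change -1.10, SE 0.30, adjusted p = 0.0338). The knockout libraries thus lay above all WT libraries for the activator and below all of them for the enzyme that works beside it. Ube2c, with 16 to 36 reads per knockout library, did not pass in 7 of 17 alternative settings (adjusted p up to 0.142). These were each WT library left out in turn, knockout replicate 3 left out, no filter, cyclic loess and reads thinned to equal depth. Espl1, the protease separase that cuts cohesin, had 352, 341 and 319 in WT and 418, 388 and 376 in the knockout, above WT in every library but not called (adjusted p = 0.158). Pttg1, its inhibitor securin, had the fewest reads of the 50, at 20.6 ± 5.22 in WT and 37.7 ± 20.0 in the knockout (adjusted p = 0.341).

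Among the spindle checkpoint genes 2 of 5 were higher and 0 lower, against 10.3% and 10.9% of all genes tested and 17.5% and 13% at like abundance. Bub1b, the BubR1 protein that binds and blocks Cdc20, had 485, 466 and 470.2 normalized reads in WT and 862, 733 and 838 in the knockout, 1.71-fold higher (log2 fold change 0.77, SE 0.09, adjusted p = 0.000812). Bub3, which brings BubR1 and Bub1 to kinetochores, had 306, 298 and 302 in WT and 404, 438 and 375 in the knockout, 1.34-fold higher (adjusted p = 0.0237). Both genes were above WT in every knockout library, with the smaller step in Bub3, whose adjusted p was 0.221 with library totals and 0.0754 to 0.0961 without each WT library in turn. In all, Bub3 did not pass in 7 of 17 alternative settings. Ttk, the Mps1 kinase that starts the checkpoint, had 141, 137 and 149.9 in WT and 221, 155 and 188 in the knockout (adjusted p = 0.144). Bub1, the kinase partner of Bub3, had 78.7 ± 12.4 and 77.9 ± 8.56, with an interval of the log2 fold change of -0.50 to 0.49. Mad2l1, the Mad2 protein that closes around Cdc20, had 155, 147 and 139.7 in WT but 178, 93.8 and 43.4 in the knockout, so that its knockout libraries lay on both sides of WT (adjusted p = 0.288).

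The kinases and cyclins that drive mitosis also split. Ccnb2 (chromosome 9, 70314974 to 70328829), which encodes cyclin B2, had 162, 153 and 182 normalized reads in WT and 84.5, 82.5 and 73.8 in the knockout, 2.06-fold lower (log2 fold change -1.04, SE 0.17, adjusted p = 0.00390). Its relative Ccnb1, the cyclin B1 gene, had 181 ± 4.32 and 168 ± 22.9, with groups that overlapped (adjusted p = 0.610, interval of the log2 fold change -0.46 to 0.22). Cdk1, the kinase that both cyclins activate, had 532, 474 and 489.9 in WT and 621, 608 and 679 in the knockout, 1.28-fold higher (log2 fold change 0.35, SE 0.09, adjusted p = 0.0290). The drop of cyclin B2 exceeded the spread of both groups, while the rise of Cdk1 was the smallest among the 22 called genes. Cdk1 did not pass in 7 of 17 alternative settings. Among these were library totals (adjusted p = 0.365), cyclic loess (adjusted p = 0.781), a weight per genotype and each WT library left out in turn. Cdc25c, a phosphatase that activates Cdk1, had 51.9, 49.7 and 54.5 in WT and 91.2, 77.6 and 69.5 in the knockout, above WT throughout but not called (adjusted p = 0.0943). Ccna2, Aurka and Plk1, which encode cyclin A2, aurora A and the polo-like kinase, had overlapping groups and adjusted p of 0.326, 0.740 and 0.720, and in Plk1 knockout replicate 1 stood at 33.5 while the others stood at 67.9 and 78.1.

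At the centromere and kinetochore 2 of 8 genes were higher and 1 lower, near the 17.5% and 13% of protein-coding genes of like abundance. Nuf2 (chromosome 1, 169325503 to 169359033), a subunit of the complex that grips microtubule ends, had 214, 199 and 188 normalized reads in WT and 430.5, 409 and 370.4 in the knockout, 2.02-fold higher (log2 fold change 1.01, SE 0.12, adjusted p = 0.000742). Its direct partner Ndc80 had 109.7 ± 7.56 in WT and 103 ± 16.3 in the knockout (adjusted p = 0.748), and the other two subunits, Spc24 and Spc25, had adjusted p of 0.642 and 0.329. Of the 4 subunits of this complex, then, Nuf2 alone passed. Cenpf, a large kinetochore and nuclear matrix protein, had 543, 575 and 602 in WT and 948, 822 and 848 in the knockout, 1.52-fold higher (adjusted p = 0.00254). Knl1, the platform on which the checkpoint proteins assemble, had 474, 481 and 468 in WT and 318, 299 and 349 in the knockout, 1.47-fold lower (log2 fold change -0.56, SE 0.10, adjusted p = 0.00637). These 2 large genes moved in opposite directions, each with groups far apart for their spread, and the call of Cenpf was lost after cyclic loess (adjusted p = 0.101). Cenpa, the histone H3 variant of centromeres, had 169, 149 and 148 in WT and 127, 38.8 and 107 in the knockout, below WT throughout but not called (adjusted p = 0.136), and knockout replicate 2 stood far below the other knockout libraries. Cenpa passed with a weight per genotype (adjusted p = 0.0290) and with the replicate number as a block (adjusted p = 0.02995). Cenpe, a kinetochore kinesin, had 593, 598 and 609 in WT and 672, 657 and 590.4 in the knockout, with groups that overlapped (adjusted p = 0.502).

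Of the 9 mitotic kinesins 1 was higher and 1 lower, near the 10.3% and 10.9% of all genes tested, and 7 did not pass. The shares at like abundance were 17.5% and 13%. The called kinesins lay at both ends of the 50. Kif22 (chromosome 7, 126626901 to 126641643), the chromokinesin that pushes chromosome arms toward the equator, had 216, 185 and 187 normalized reads in WT and 512, 492 and 528 in the knockout, 2.60-fold higher (log2 fold change 1.38, SE 0.11, adjusted p = 0.000100). Kif18a (chromosome 2, 109111083 to 109172092), which dampens chromosome movement at the metaphase plate, had 129.8, 116 and 104 in WT and 46.9, 30.7 and 59.3 in the knockout, 2.55-fold lower (log2 fold change -1.37, SE 0.28, adjusted p = 0.0106). The knockout libraries of Kif22 lay close together (SD 18.3), whereas Kif18a rests on 19 to 41 reads per knockout library and did not pass without each WT library in turn (adjusted p of 0.0535 to 0.0701). The motors that push spindle poles apart were close between the groups: Kif11 had 435 ± 22.4 in WT and 444 ± 71.2 in the knockout (95% interval of the log2 fold change -0.28 to 0.32). Kif15, which can stand in for Kif11, had 656, 646 and 706 in WT and 578, 645 and 624 in the knockout (interval -0.32 to 0.08), all below WT by a small margin, and it passed as lower with library totals (adjusted p = 0.0207) and after cyclic loess (adjusted p = 0.00759). Kif20b, a motor of the late midzone, had 387, 401 and 450.4 in WT and 449, 472 and 344 in the knockout (interval -0.29 to 0.34). Kif4, Kif20a, Kif23 and Kif2c also overlapped between the groups, and Kif2c, a microtubule-depolymerising kinesin, ranged in the knockout from 67.1 to 191.

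Of the genes of the midzone and cytokinesis, 1 of 4 was higher and 0 lower, against 10.3% and 10.9% of all genes tested and 17.5% and 13% at like abundance. Prc1, which crosslinks the antiparallel microtubules of the midzone, had 260.3, 195 and 213 normalized reads in WT and 329, 458 and 419.6 in the knockout, 1.81-fold higher (log2 fold change 0.85, SE 0.16, adjusted p = 0.00893). Prc1 lies wholly within the span of Rccd1 on the opposite strand (99.6 normalized reads on average), and whether counting used the strand is not given in the sources used here, so reads of the pair may not be separated. Anln, the contractile ring protein anillin, had 394, 407 and 378 in WT and 602, 437 and 528 in the knockout, above WT throughout but not called (adjusted p = 0.0574), and it passed in 6 of 17 alternative settings, among them edgeR, DESeq2 and upper-quartile scaling. Ect2, which activates RhoA at the cell equator, had 170.1, 194 and 177 in WT and 146, 168 and 149 in the knockout, all below WT (adjusted p = 0.305), and Racgap1, its partner at the midzone, had 313 ± 37.0 and 268 ± 51.2 (adjusted p = 0.352).

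**Figure D3:**
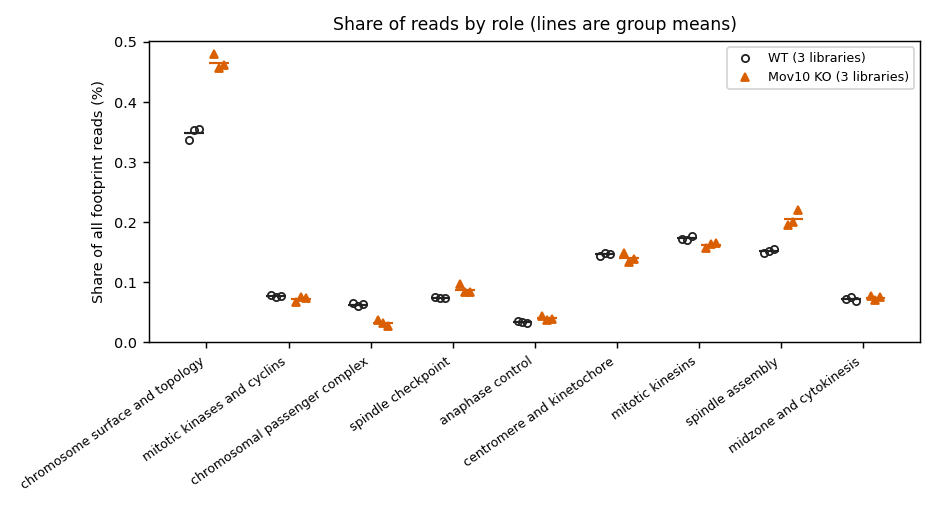
Share of all footprint reads (vertical axis, in percent) taken by each role in the 3 WT libraries (open circles) and 3 Mov10 KO libraries (triangles), with lines at the group means. The passenger complex has means of 0.0625% in WT and 0.0324% in the knockout, spindle assembly 0.151% and 0.204%, and the pair Top2a and Mki67 0.348% and 0.466%.

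By role, the libraries did not overlap in the summed share of 6 of the 9 roles: higher in the knockout for Top2a with Mki67 (ratio 1.34), spindle assembly (1.35), the checkpoint (1.18) and anaphase control (1.16), and lower for the passenger complex (0.518) and the kinesins (0.938, a direction that reverses for normalized reads), each with an exact two-sided permutation p of 0.1. For kinases and cyclins, kinetochores and the midzone the p was 0.2, 0.4 and 0.4. Shares divide by library totals, whereas the gene levels above divide by size factors, and 3 roles change direction between these scales. The summed normalized reads of the kinesins were 2614 to 2726 in WT and 2850 to 3017 in the knockout (ratio 1.10), higher rather than lower. For kinases and cyclins the ratio was 0.939 as a share and 1.10 as normalized reads, and for kinetochores 0.959 and 1.13. The passenger complex was lower on both scales (0.607 as normalized reads), and Top2a with Mki67 (1.57), spindle assembly (1.59), the checkpoint (1.39) and anaphase control (1.37) were higher on both.

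The called genes differed in how much they are read. The 15 higher genes had a median of 541 mean normalized reads and the 7 lower genes 96.7, with 175 for those not called, and median gene lengths were 7006, 3402 and 4919 bases. Across the 50, the log2 fold change had a Spearman correlation of 0.49 with the mean reads over all libraries and 0.28 with the mean in WT, against 0.28 and -0.01 across the 7755 protein-coding genes of like abundance. With gene length the correlation was 0.22 across the 50 and -0.05 across the 7755. The mean over all libraries includes the knockout libraries, so a rise in the knockout raises it, and the WT mean enters the fold change too. The correlations with reads and the medians of 541 and 96.7 are therefore not independent of the fold changes. These correlations are across genes that share libraries and depth, and are a description only.

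**Figure D4:**
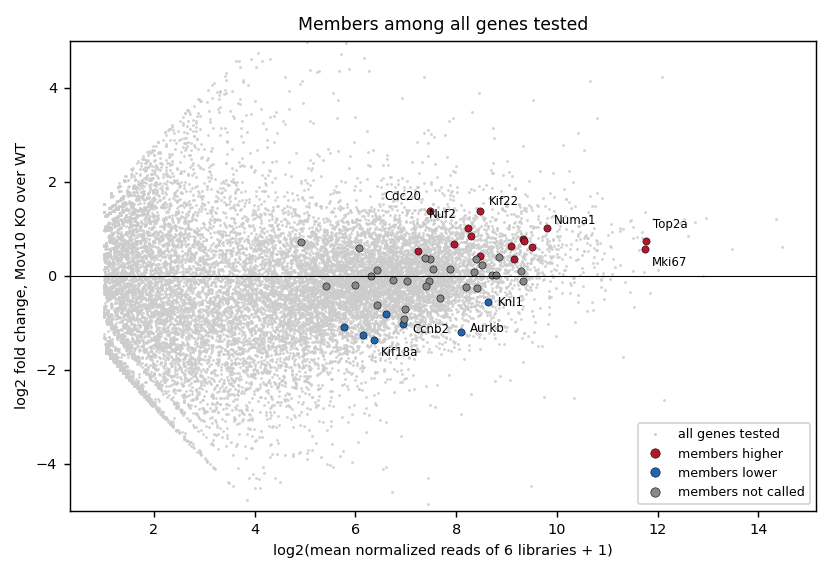
Log2 fold change, Mov10 KO over WT, against mean abundance for all 17114 genes tested (grey; 32 genes lie outside the vertical limits of -5 and 5) and for the 50 mitosis and spindle genes (coloured by call). Most of the lower genes lie toward the left of the 50, with Knl1 and Aurkb farther right, and Top2a and Mki67 lie at the far right of the 50.

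Within the knockout, the 50 genes scattered more than within WT. The coefficient of variation among 3 libraries had medians of 5.69% (WT) and 15.1% (knockout), and exceeded its WT value in 45 of 50 genes. Relative to counting noise, the chi-square per degree of freedom over the 3 libraries had a median of 0.992 in WT and 3.57 in the knockout, where counting noise alone gives a median of 0.693. Over 9226 genes with a mean of at least 20 reads these medians were 1.22 and 4.67, so the knockout libraries scattered more over the table as a whole. Mad2l1 had the widest scatter in the knockout, with a coefficient of variation of 64.8% against 5.27% in WT, and Spc25, Pttg1, Cenpa and Kif2c followed. The test took the same spread for both genotypes, and with a weight per genotype 12 of the 50 were higher and 8 lower.

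**Figure D5:**
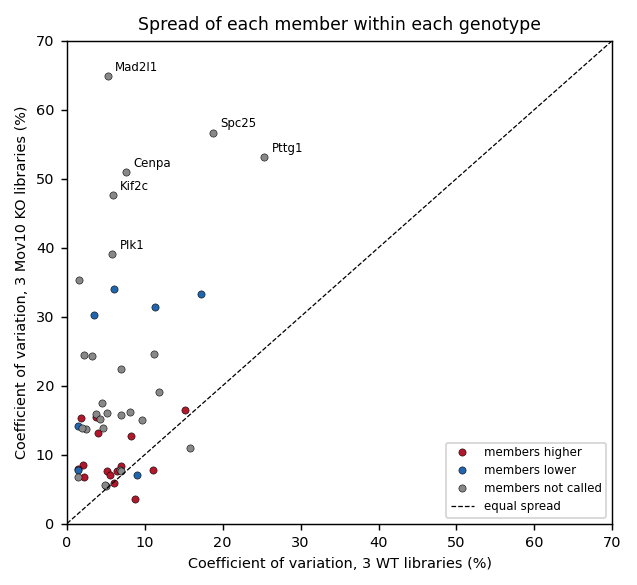
Coefficient of variation (percent) of each of the 50 genes among the 3 WT libraries (horizontal) and the 3 Mov10 KO libraries (vertical), coloured by call, with the line of equal spread dashed. In 45 of 50 genes the point lies above the line, and Mad2l1 is highest at 64.8%.

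Other genes of mitosis, in a list of 133 that leaves out the 50, had 24 higher and 21 lower of 131 tested. Their median log2 fold change was -0.22. For this list and its parts below, the shares over all genes tested were 10.3% higher and 10.9% lower. Among protein-coding genes within the range of mean reads of the 50 they were 17.5% and 13%. With library totals the list had 11 higher and 34 lower (median -0.45). The dynein heavy chain Dync1h1, the motor that pulls on spindle poles with Numa1, rose 1.73-fold, from 2430.0 ± 144 to 4200.3 ± 83.9 (adjusted p = 5.44e-05), and its dynactin subunit Dctn2 rose 1.61-fold. Lower were Mapre1, the plus-end protein EB1 (2.01-fold), Pafah1b1, the dynein regulator Lis1 (1.87-fold) and Dlgap5, a spindle protein (2.21-fold). Of 17 genes of the anaphase-promoting complex and its regulators, 2 were higher and 4 lower. The scaffold Anapc1 rose 1.52-fold and Anapc5 fell 2.08-fold, from 644 ± 3.93 to 309 ± 38.5 (adjusted p = 0.000399). Anapc10 and Anapc15 had no read in any knockout library, but both are little read. Their log2(mean normalized reads of 6 libraries + 1) was 2.92 and 2.20, and 1 read equals 1.34 to 1.62 normalized reads in the knockout libraries. Among 36 other kinetochore and checkpoint genes, 5 were higher and 5 lower, the higher ones including Spdl1 (1.81-fold), Cenpc1 (2.43-fold) and Mis18a (2.18-fold) and the lower ones Cenpn (4.17-fold), Cenpo (3.39-fold) and Cenpt (2.18-fold).

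Of the regulators of entry and exit, 5 of 28 were higher and 5 lower, against 10.3% and 10.9% of all genes tested. With library totals 2 were higher and 10 lower, with the replicate block 3 and 8, with a weight per genotype 3 and 10, and without each WT library in turn 1 to 2 and 1. The inhibitory kinase Wee1 rose 1.67-fold, whereas Pkmyt1, which inhibits Cdk1 as well, fell from 169 ± 8.05 to 47.7 ± 29.5, 3.54-fold lower (adjusted p = 0.0113). Cks2, a small partner of Cdk1, fell from 38.4 ± 7.76 to 3.16 ± 4.29 (adjusted p = 0.0147), and the phosphatase subunits Ppp2r1a and Ppp1cc moved apart, 1.75-fold higher and 2.66-fold lower. Mybl2, the Myb protein that acts with CHR elements, was lower at 142 ± 13.5 in WT and 87.6 ± 20.1 in the knockout (adjusted p = 0.0477), and Foxm1 (85.4 ± 12.8 and 63.1 ± 16.4) did not pass (limma adjusted p = 0.265). At the centrosome 6 of 27 tested genes were higher, led by Cep135 (2.35-fold), and 4 lower, led by Tubgcp2 of the gamma-tubulin complex (3.01-fold).

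Genes of neighbouring steps of the cell cycle were counted too. Of 53 DNA replication genes 13 were higher and 5 lower (median log2 fold change 0.11), against 10.3% and 10.9% of all genes tested. For this list and the cohesin and condensin genes below, the shares among protein-coding genes within the range of mean reads of the 50 were 17.5% and 13%. The higher ones included Rrm1, a subunit of ribonucleotide reductase (2.02-fold), Mcm4 of the replicative helicase (1.85-fold) and Pole, a replicative polymerase (1.84-fold). Mcm7 was 1.51-fold lower. Of 18 cohesin and condensin genes 7 were higher and 1 lower (median 0.26), against 10.3% and 10.9% of all genes tested, with Smc1a 2.68-fold and Ncapg 1.92-fold higher and Stag1 1.35-fold lower. With library totals the replication genes turned to 8 higher and 14 lower, and after cyclic loess to 8 and 9. Cohesin and condensin genes had 4 higher and 2 lower with library totals (median 0.03) and 3 and 2 after cyclic loess (median -0.01). The difference between these lists and the 50 was not tested.

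Calls on the 50 genes differed in how well they held. Aurkb, Ccnb2, Knl1, Bub1b, Nuf2, Numa1, Cdc20 and Kif22 passed in the same direction under all 17 alternative settings, 5 of them higher and 3 lower. Mki67, Cenpf, Aspm, Ckap5 and Top2a passed in all but cyclic loess. Without WT replicates 1, 2 and 3 in turn 12, 11 and 10 of the 50 were higher and 3, 3 and 3 lower, against 3628 genes called in all and 1592, 1385 and 1360 without those libraries. The authors' deposited table lists an adjusted p under 0.05 for the same numbers, 15 higher and 7 lower. The genes are not all the same: there Anln passed (authors' adjusted p = 0.0238) and Nusap1 did not (authors' adjusted p = 0.0579). Of the 50, 15 genes overlap another gene with reads in the table. For Cdc20, Kif18a and Numa1 the overlap is under 100 bases, and without all 15 the counts were 8 higher and 5 lower of 35. Values of Incenp, Pttg1, Bub1, Mad2l1, Ccnb1, Ccna2, Aurka, Plk1, Ndc80, Spc24, Spc25, Kif2c, Racgap1, Mybl2 and Foxm1 were added after they had been seen, outside the rule for named genes.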

How the data were processed

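Ribosome footprints of 6 libraries were deposited by the authors as a table of normalized values per gene, a signal equal to reads divided by a size factor per library, with gene lengths beside it. The genome build was GRCm39, per the submitters' processing notes; the aligner, counting tool, annotation and use of strand were not given in the sources used here. The authors' deposited p-values (adjusted) and log2 fold changes were used only where named. Whole read counts were recovered from the deposited values (99.98% of values above 0 lay within 0.05 of a whole read), and 5 genes whose values were not whole multiples of 1 read of their own library were left out.

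The main test was limma 3.58.1 (R 4.3.3; lmFit and eBayes with a variance trend) on log2(value + 1) for genes with a mean of at least 1, genotype as the only term, with calls at adjusted p under 0.05 (Benjamini-Hochberg). Fold changes on this scale understate the change of low genes. edgeR 4.0.16 (quasi-likelihood, TMM) and DESeq2 1.42.0 on the recovered reads, other scalings, filters and pseudocounts, thinning and leaving out each library were alternatives. Tested on simulated data, limma found 63 of 100 simulated 2-fold changes and 100 of 100 at 4-fold, with 5 false calls among 16293 genes. A wider scatter in the knockout, as seen in the real libraries, was not part of those data. The rates may therefore not hold for the real libraries. Reads carry no molecular identifiers.

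Named with values were all called members, members not called whose libraries did not overlap, the 6 most abundant others, and up to 3 called genes per direction of each other list. The members and lists were chosen with earlier results of these data known.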

Additional observations from a re-analysis of the deposited data

How the results depend on the processing

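Leaving out 1 library at a time gave 1360 to 4599 called genes (1592, 1385 and 1360 without WT replicates 1, 2 and 3), 10 to 16 mitosis genes higher and 3 to 8 lower (3 without each WT library), and a difference in summed share of 0.129 to 0.154 percentage points. Cyclic loess left 7 genes higher. Leaving out members that overlap another gene, chosen after seeing the data, left 8. The share difference of 0.141 became 0.0686 without Top2a and 0.191 without the 20 most abundant genes. Reversed log2 fold changes were -0.21 for Kif11, -0.21 for Kif20b, -0.14 for Cenpe and -0.0056 for Espl1 with library totals, and -0.23, -0.22, -0.24 and, for Mki67, -0.15 after cyclic loess. When libraries were left out, Kif11 ranged from -0.075 to 0.15 and Kif20b from -0.066 to 0.16. The cause was not tested. With library totals 31.0% of called genes were higher, against 48.4%.

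With the replicate number as a block 3245 genes were called, 14 members higher (Nusap1 lost, adjusted p = 0.0837) and 8 lower (Cenpa gained, adjusted p = 0.02995). Same-numbered libraries did not deviate together (correlations -0.029, -0.0055 and -0.021). Such correlations cannot show whether these libraries were prepared together, and the labels do not say. Knockout libraries held fewer reads, which limits genes with few reads such as Ube2c and Kif18a.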
